A study of Mus musculus with 8 samples.

Results

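Molecular chaperones are followed here in Paneth cells, the secretory cells at the base of the small intestinal crypts. The set holds heat shock proteins, DnaJ co-chaperones and the heat shock transcription factor Hsf1. Members were all protein-coding genes with GENCODE mouse symbols of the families Hspa, Hspb, Hspd, Hspe, Hsph, Hsp90a, Dnaja, Dnajb and Dnajc, plus Hsf1. Hspa5, Dnajb9, Dnajb11, Dnajc3 and Dnajc10, chaperones of the endoplasmic reticulum, were left out by the rule. No other gene of these families was left out, so the set still holds Hspa13, a microsomal relative of Hsp70. This gave 67 genes of the 55414 gene IDs in the count table. The rule itself reads gene symbols only, although the set was proposed with earlier results of these data known.

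C57BL/6J mice, with no transgene or deletion in either group, drank Milli-Q water alone (called water here) or water supplemented with zinc sulphate at 25 mM (called zinc), in both cases over 7 days. Paneth cells of the small intestine were then collected by FACS, and poly(A) RNA was sequenced from 4 mice on water and 4 mice on zinc, with 1 library for each mouse. Neither the labels nor the methods state the age of these mice or the sexes in each group. Zinc is stored in Paneth cell granules, and the comparison addresses how these cells respond to more zinc in the drinking water.

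Hsp70 proteins bind unfolded stretches of other proteins and release them in cycles driven by ATP. DnaJ proteins, also called J proteins or Hsp40s, bring the client and start ATP hydrolysis, whereas Hsp110 proteins exchange the nucleotide that follows. Hsp90 finishes the folding of kinases and receptors, the chaperonin of Hspd1 and Hspe1 encloses proteins in mitochondria, and small heat shock proteins hold unfolded proteins without using ATP. Under heat, oxidants or metals that react with thiols, Hsf1 forms trimers and binds heat shock elements, repeats of the unit GAA in alternating orientation, in the promoters of the inducible genes. Zinc itself is sensed by another factor, Mtf1, which binds metal response elements in the promoters of metallothionein genes.

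The start sites of Hspd1 and Hspe1 lie 108 bases apart on chromosome 1 and point away from each other. The 300 bases before each canonical start site (GENCODE M39, GRCm39) were searched on both strands for a heat shock element of 3 units, written TTCNNGAANNTTC or GAANNTTCNNGAA. Of the 51 members that could be tested for an effect of zinc, Hspd1 and Hspe1 alone held it (3.92%), against 0.413% of 11379 tested protein-coding genes. Both genes share the same 18 bases, which hold 2 overlapping matches, so the 3.92% rests on a single stretch of DNA counted for each gene. The stretch is shown for both strands because it lies between the pair, with the matched bases in capitals.
Hspd1, chr1:55127212-55127241, minus strand, capitals 52 to 35 bases before its start site: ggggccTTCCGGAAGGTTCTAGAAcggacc
Hspe1, chr1:55127212-55127241, plus strand, capitals 73 to 56 bases before its start site: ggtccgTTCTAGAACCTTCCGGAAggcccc

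A shorter element of 2 units, TTCNNGAA or GAANNTTC, was found in 10 of the 51 tested members (19.6%) and in 13.5% of the tested protein-coding genes. This count includes Hspd1 and Hspe1, since each 3-unit match also contains shorter ones. Hsp90aa1, Hspa8 and Hspa13, which varied with Hsph1 between the mice as described further on, held no match, and Hspa1b held 1. Hsph1 itself and Dnaja1, which also varied with it, each had 1 such match, shown in capitals. A relation between the element and the shared variation was not tested.
Hsph1, chr5:149559816-149559845, minus strand, capitals 28 to 21 bases before its start site: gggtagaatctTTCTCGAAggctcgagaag
Dnaja1, chr4:40722333-40722362, plus strand, capitals 124 to 117 bases before its start site: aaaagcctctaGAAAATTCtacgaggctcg

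Hspa1a and Hspa1b, both encoding inducible cytosolic Hsp70, are neighbouring single-exon genes on the minus strand of chromosome 17 with start sites 12918 bases apart. Their 300-base promoters are shown whole, since 282 of the 300 bases (94.0%) were identical between the 2 genes. Each held 1 match of 2 units, in capitals, 104 to 97 bases before the start site.
Hspa1a, chr17:35191133-35191432, minus strand: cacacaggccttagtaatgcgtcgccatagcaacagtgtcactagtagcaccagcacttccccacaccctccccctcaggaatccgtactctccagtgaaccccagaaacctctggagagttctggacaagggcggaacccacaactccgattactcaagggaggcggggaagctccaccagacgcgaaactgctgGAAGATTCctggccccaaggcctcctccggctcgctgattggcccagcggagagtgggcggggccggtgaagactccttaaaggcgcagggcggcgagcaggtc
Hspa1b, chr17:35178215-35178514, minus strand: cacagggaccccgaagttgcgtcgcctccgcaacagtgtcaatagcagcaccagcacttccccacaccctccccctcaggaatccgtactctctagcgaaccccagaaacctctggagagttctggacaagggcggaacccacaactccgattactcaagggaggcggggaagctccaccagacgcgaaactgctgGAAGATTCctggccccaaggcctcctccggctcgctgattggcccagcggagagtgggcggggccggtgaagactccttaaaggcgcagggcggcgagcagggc

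The metal response element, searched as TGCACNC or TGCGCNC on both strands, was present before 17 of the 51 tested members (33.3%) and before 30.3% of tested protein-coding genes. Mt1, Mt2 and Slc30a1, known Mtf1 targets, held 1, 2 and 2 matches. These matches describe letters in a window and were not tested for binding.

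The libraries held 20760764 to 24117111 counts. Levels are given as CPM, in which counts are divided by the library total multiplied by a TMM factor. They are always in the order of replicates 1 to 4 within a group. The TMM factors ran from 0.764 and 0.775 in water and zinc replicate 1 to 1.21 and 1.23 in water and zinc replicate 4. The divisor was 15988699 for 20949548 counts in water replicate 1 and 26186713 for 21600340 counts in water replicate 4. CPM thus does not add up to the same total in every library, and a summed CPM is not a share of counts. All 10 Paneth cell markers were tested and none was called, with a summed level of 710400, 463800, 464900 and 362200 CPM on water and 705100, 490200, 461500 and 342700 CPM on zinc. Of the other cell types, summed goblet cell markers were at 3153 to 4152 and 3433 to 5867 CPM, stem and cycling cell markers at 4296 to 5767 and 3135 to 4412 CPM, and enterocyte markers at 234 to 255 and 235 to 317 CPM. The stem and cycling sum was mostly Olfm4, at 4734 ± 575 and 3404 ± 572 CPM (SD, n = 4 each). At an unadjusted edgeR p below 0.05, 3 of these 5 markers were counted, Olfm4 with a log2 fold change of -0.48 and the cycling genes Mki67 and Top2a with 0.39 and 0.43, beside 1 of 6 tested enterocyte markers and no other marker. Enteroendocrine markers summed to 6.13 to 86.4 and 9.20 to 43.1 CPM, and tuft cell markers to 14.0 to 120 and 17.1 to 81.6 CPM. Immune cell markers stayed at or below 1.22 CPM in sum, with Cd3e and Itgax at 0, and stromal and endothelial markers at or below 0.625 CPM, with Col1a1, Col1a2, Dcn and Cdh5 at 0. No gene in these marker lists was called by edgeR, and their part in the chaperone values was not tested. The 3 genes called higher on zinc were the zinc-responsive genes fixed as a check, Mt2 from 3.95 ± 2.31 to 283 ± 116 CPM, Mt1 from 20.9 ± 7.48 to 264 ± 109 CPM and the zinc exporter Slc30a1 from 2.51 ± 1.10 to 10.3 ± 2.31 CPM (SD, n = 4 each), with edgeR adjusted p values of 0.020, 0.026 and 0.020.

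Sorted Paneth cells contained RNA of most chaperone families, and no chaperone gene passed the test for an effect of zinc. Of the 67 members, 51 had enough counts to be tested, 6 were detected but too low to test, and 10 had no count in any library. Dnajb13, Dnajb8, Dnajc5b, Dnajc5g and Hspa12b were among these 10, and the others were Hspa1l, Hspb2, Hspb3, Hspb7 and Hspb9. A count of 0, taken as at most 3 counts, allows a level of up to 0.115 to 0.188 CPM depending on the library, counting error only. Every gene was tested in DnaJA (4 genes), Hsp110 (3) and Hsp90 (2), as was Hsf1. Only 2 of 7 small heat shock protein genes reached the test, against 23 of 26 DnaJC genes, 7 of 11 DnaJB genes and 7 of 10 Hsp70 genes.

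The members together took 0.159, 0.255, 0.223 and 0.273% of all counts on water, and 0.168, 0.240, 0.256 and 0.284% on zinc. Replicate 1 was lowest and replicate 4 highest in both groups, and the groups overlapped throughout. The summed Paneth cell markers, given in TMM CPM and not as a share of counts, had the reverse order at these ends. They were highest in replicate 1 and lowest in replicate 4 of both groups, and their part in the share was not tested. The mean share was 0.227 ± 0.0501% on water and 0.237 ± 0.0493% on zinc (SD, n = 4 each), a difference of 0.00935 percentage points that was well inside the spread between mice. On the TMM scale the summed level of the members was 2233 ± 197 CPM on water and 2331 ± 119 CPM on zinc. By replicate it was 2080, 2506, 2097 and 2249 CPM on water and 2168, 2405, 2434 and 2317 CPM on zinc. Replicate 4 was thus highest in neither group on this scale. In such bulk libraries, a change in the share of cells that express a gene and a change in RNA per cell cannot be told apart.

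Hsp90ab1, the constitutive cytosolic Hsp90, was the leading chaperone transcript with 32.5% of all member counts. It was followed by Hspa9, the mitochondrial Hsp70, with 8.62%, by Hspa8, the constitutive cytosolic Hsp70, with 8.47%, and by the Hsp110 gene Hspa4 with 5.39%. Together, these 4 genes held 54.97% of the member counts and the leading 12 genes 76.4%. Per kb of merged exon the order of levels was Hsp90ab1 at 136 CPM per kb, Hspa9 at 38.1, Dnaja2 at 25.6, Hspd1 at 24.0 and Hspa8 at 22.4. The place of Hspa8 depended on the length used, since with the canonical transcript length it came second at 81.4 CPM per kb, after Hsp90ab1 at 272. Of its 75-base windows 68.0% also occur in other annotated genes, pseudogenes among them, and dividing the same counts by the length of the windows found in no other gene gave 263 CPM per kb against 281 for Hsp90ab1. That value is a level only if reads from shared windows had been dropped, which is not stated.

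**Figure D1:**
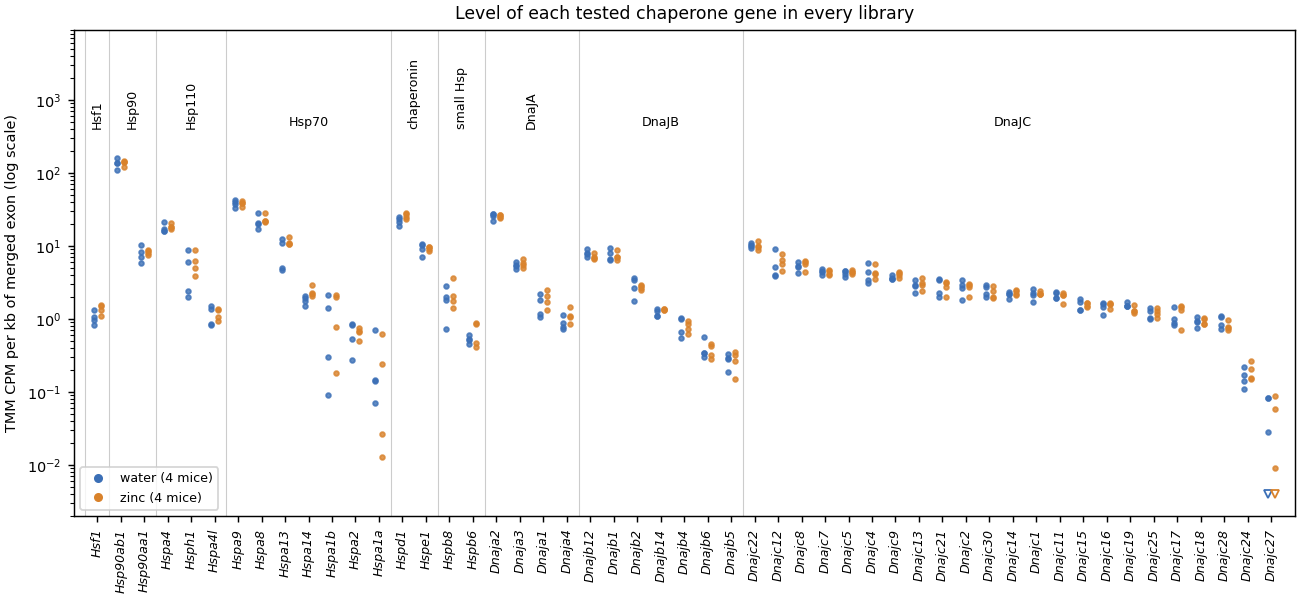
Level of the 51 tested chaperone genes in TMM CPM per kb of merged exon on a log axis, grouped by family, with 1 point for each library (blue, 4 mice on water; orange, 4 mice on zinc). Hsp90ab1 stands highest at 136 CPM per kb on average, Hspa1b and Hspa1a are spread most widely among the Hsp70 genes, and open triangles mark libraries with 0 counts (Dnajc27 in water replicate 1 and zinc replicate 1).

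Zinc was compared with water in 1 edgeR quasi-likelihood fit over 11988 genes. None of the 51 tested members was called at an adjusted p below 0.05 by edgeR, and the smallest adjusted p was 0.998. Across all tested genes 0.0834% were called, that is 3 higher and 7 lower on zinc. At an unadjusted p below 0.05, 2 members were counted, Hspa14 and Hsf1, which is 2 of 51 beside 4.65% of all tested genes. For 0 of 51 members the 4 zinc values lay wholly outside the range of the 4 water values, beside 2.84% of all genes.

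The fitted log2 fold change was above 0 for 34 members and below 0 for 17, from -0.33 for Hspa1a to 0.45 for Hspa13. Its median was 0.06 over the members and 0.01 over all tested genes, and 66.7% of the members lay above 0 beside 51.9% of all genes. By family the median was 0.18 for DnaJA (4 genes tested), -0.06 for DnaJB (7), 0.05 for DnaJC (23), 0.13 for Hsp70 (7), 0.07 for Hsp110 (3) and 0.04 for Hsp90 (2). Precision differed between the members. The SE ran from 0.11 to 1.07, and the 95% interval of the log2 fold change stayed within -0.5 and 0.5 for 31 members and within -1 and 1, a 2-fold change either way, for 45 of 51.

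**Figure D2:**
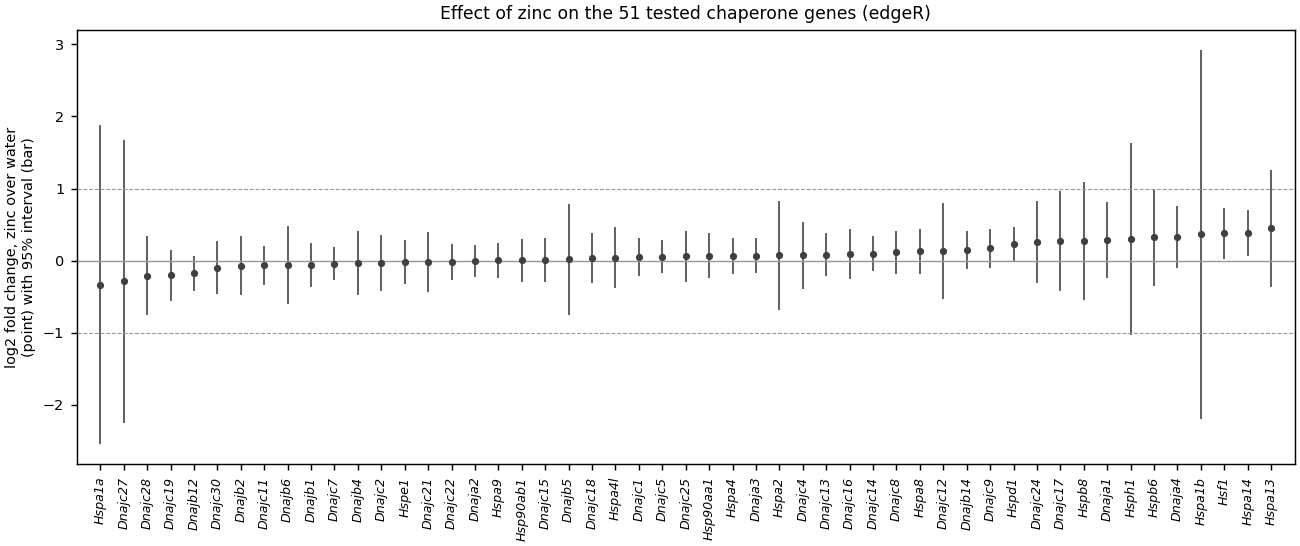
Fitted log2 fold change of zinc over water (points) with its 95% interval (bars) for the 51 tested chaperone genes, ordered by fold change, with dashed lines at a 2-fold change. The points run from -0.33 to 0.45 and 45 intervals lie inside the dashed lines, whereas those of Hspa1a, Hspa1b, Dnajc27, Hsph1, Hspb8 and Hspa13 reach beyond.

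Hsf1, the transcription factor of the heat shock response (chr15:76361558-76388138, plus strand), was expressed at a low level. It measured 9.76, 13.2, 8.29 and 10.6 CPM on water and 11.1, 13.2, 14.9 and 15.4 CPM on zinc. Zinc replicates 3 and 4 were above every water value, while replicates 1 and 2 were not. The log2 fold change was 0.38 with SE 0.17 and a 95% interval of 0.03 to 0.74, and the edgeR p was 0.0357 before and 0.998 after adjustment over all genes.

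Both cytosolic Hsp90 genes were nearly level between the groups. Hsp90ab1 (chr17:45878552-45891949, minus strand) was at 598, 744, 731 and 860 CPM on water and at 652, 756, 753 and 779 CPM on zinc, and all 4 zinc values fell inside the water range. Its log2 fold change was 0.004 with SE 0.14, so the 95% interval of the fold ran from 0.816 to 1.23. Hsp90aa1, the inducible form (chr12:110656842-110669166, minus strand), was found at 37.9, 47.6, 26.9 and 32.1 CPM on water and 34.5, 41.1, 38.8 and 37.0 CPM on zinc. The water mice spread further than the zinc mice, 36.1 ± 8.89 against 37.9 ± 2.81 CPM (SD, n = 4 each), and the log2 fold change was 0.07 with SE 0.15. Of its 75-base windows 49.3% occur in other annotated genes, so its level rests on how such reads were counted.

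Among the Hsp110 genes, which encode nucleotide exchange factors of Hsp70, Hsph1 varied most between mice. Hsph1 (chr5:149537636-149560156, minus strand) was at 67.5, 97.6, 22.3 and 26.9 CPM on water and at 55.5, 97.2, 68.7 and 42.5 CPM on zinc. Replicate 2 was highest in both groups, water replicates 3 and 4 were lowest, and the highest library was 4.37 times the lowest. The log2 fold change of 0.30 had an SE of 0.55 and a 95% interval of -1.03 to 1.64, and changes of up to 3.11-fold up or down to 0.489-fold lay inside it. By contrast, Hspa4 was measured with an SE of 0.12 and had a log2 fold change of 0.07.

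The 2 genes of inducible Hsp70 were low and uneven. Hspa1b had 64, 140, 6 and 22 counts on water and 102, 116, 55 and 13 counts on zinc, that is 4.00, 6.02, 0.254 and 0.840 CPM and 6.06, 5.60, 2.17 and 0.504 CPM. Hspa1a was lower still, with 0.438, 2.11, 0.212 and 0.420 CPM on water and 1.84, 0.724, 0.0790 and 0.0388 CPM on zinc. High and low libraries of either gene occurred in both groups. Their log2 fold changes were 0.36 with SE 1.07 for Hspa1b and -0.33 with SE 1.01 for Hspa1a, and their 95% intervals, 0.218 to 7.58-fold and 0.171 to 3.69-fold, hold changes of several-fold in either direction. Between 54.2 and 55.8% of their 75-base windows are shared with each other or with Hspa1l, and with the counts of both added the log2 fold change was 0.24.

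Hspa8, the constitutive Hsp70 (chr9:40711630-40731039, plus strand), was abundant throughout. Its level was 179, 243, 148 and 175 CPM on water and 193, 244, 193 and 184 CPM on zinc, with replicate 2 highest in both groups. The log2 fold change was 0.13 with SE 0.15. Hspa9, the Hsp70 of the mitochondrial matrix, was steadier at 169, 216, 193 and 203 CPM on water and 175, 199.6, 212 and 196 CPM on zinc. Its log2 fold change was 0.004 with SE 0.12, which leaves a 95% interval of 0.847 to 1.19-fold.

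Hspa13 had the highest fitted change of the members, and Hspa14 the smallest p. Hspa13, a microsomal relative named after its values were seen, was at 89.3, 78.6, 35.6 and 33.6 CPM on water and at 74.8, 76.5, 94.3 and 77.1 CPM on zinc. Water replicates 3 and 4 were thus at less than 36 CPM and the other 6 libraries between 74.8 and 94.3 CPM, and the log2 fold change was 0.45 with SE 0.35. Hspa14, a relative that works at the ribosome, was at 13.8, 15.5, 11.8 and 16.6 CPM on water and at 17.3, 16.6, 17.8 and 23.5 CPM on zinc. Only zinc replicate 2 fell, by a small margin, below the highest water value. The log2 fold change of Hspa14 was 0.38 with SE 0.15, and its edgeR p of 0.0224 before adjustment, the smallest of the members, became 0.998 after it.

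The mitochondrial chaperonin was expressed in every library. Hspd1, which forms the ring, was at 69.1, 91.9, 80.03 and 88.3 CPM on water and at 88.4, 92.6, 101 and 104 CPM on zinc. Zinc replicates 2, 3 and 4 were above every water library, and the group means were 82.3 ± 10.1 and 96.5 ± 7.25 CPM (SD, n = 4 each). For Hspd1 the fitted log2 fold change was 0.23 with SE 0.12, and the edgeR p was 0.0624 before and 0.998 after adjustment. Hspe1, which forms the lid, was at 16.3, 18.3, 12.6 and 19.3 CPM on water and at 15.1, 17.0, 17.2 and 16.2 CPM on zinc, with a log2 fold change of -0.02 and SE 0.15. The pair shares the promoter stretch printed above, and the difference between their fold changes was not tested.

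Small heat shock proteins were at or near the detection limit, apart from Hspb8 and Hspb6. Hspb1, also known as Hsp25 or Hsp27 and inducible in many tissues, had 1 count, in zinc replicate 2, in all 8 libraries. Since 56.8% of its 75-base windows also occur in a pseudogene, this count too rests on how shared reads were treated. Hspb8, which works with the co-chaperone Bag3, was at 4.13, 4.47, 6.47 and 1.64 CPM on water and at 4.69, 3.19, 8.22 and 3.96 CPM on zinc, a log2 fold change of 0.27 with SE 0.38. Hspb6, the other tested gene of this family, had a log2 fold change of 0.32 with SE 0.32.

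Among the DnaJ proteins of type A, which partner Hsp70 in the cytosol or mitochondria, Dnaja2 was the highest per kb and among the steadiest of all members. Dnaja2 was at 92.5, 91.9, 87.2 and 73.9 CPM on water and at 88.0, 81.5, 90.7 and 84.1 CPM on zinc, with a log2 fold change of -0.005 and SE 0.11. Dnaja1 was at 16.5, 20.02, 10.9 and 9.74 CPM on water and at 15.6, 19.0, 22.7 and 12.1 CPM on zinc. Water replicates 3 and 4 were again its lowest libraries, and the log2 fold change was 0.28 with SE 0.24. A further 77.1% of the Dnaja1 windows occur in another annotated gene on the opposite strand only, so its counts also rest on whether strand was used in counting.

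Type B and type C DnaJ genes were mostly close to level. Dnajb1, the inducible Hsp40, was at 30.3, 35.7, 24.0 and 25.0 CPM on water and at 32.7, 26.6, 24.3 and 26.7 CPM on zinc, with a log2 fold change of -0.06 and SE 0.14. Dnajc5, the cysteine string protein of secretory vesicles, was at 44.9, 50.2, 49.4 and 40.5 CPM on water and at 47.6, 44.7, 51.3 and 48.4 CPM on zinc. Its log2 fold change was 0.05 with SE 0.11, and the 95% interval of the fold was 0.884 to 1.22. The 23 tested DnaJC genes had log2 fold changes from -0.29 for Dnajc27 to 0.27 for Dnajc17. Dnajc27 was near the limit of detection, at 0, 0.301, 0.888 and 0.878 CPM on water and 0, 0.0966, 0.948 and 0.621 CPM on zinc.

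A few chaperones varied widely over the 8 libraries of both groups together. The SD of log2 CPM over the 8 libraries had a median of 0.25 both over the members and over all 11988 genes, and 26 members were above that of all genes. In Hspa1b (1.66), Dnajc27 (1.53), Hspa1a (1.49), Hsph1 (0.79) and Hspb8 (0.68) it exceeded the value of 90% of all genes. These were 5 of 51 members, about the share that this cut leaves over all genes. Dnajc27 and Hspa1a had few counts, 11.6 and 15.1 per library on average, whereas Hsph1 had 1296. At the other end were Dnajc7 (0.10), a J protein that meets both Hsp70 and Hsp90, Dnaja2 (0.11), Dnajc5 (0.11) and Hspa9 (0.12).

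**Figure D3:**
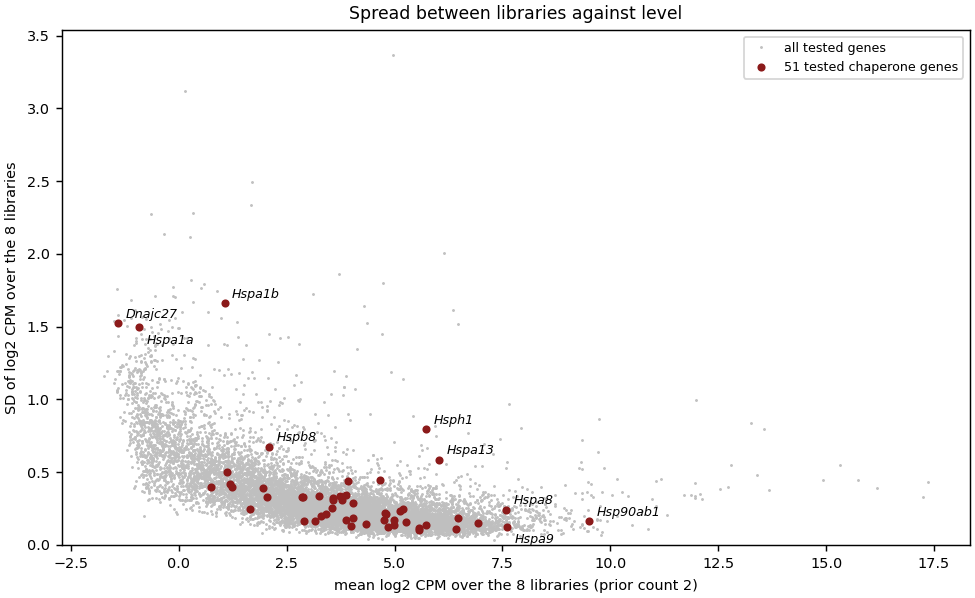
SD of log2 CPM over the 8 libraries against mean log2 CPM for the 11988 tested genes (grey) and the 51 tested chaperone genes (dark red). Hspa1b (1.66), Hsph1 (0.79) and Hspa13 (0.58) lie above most genes of their level, and Hsp90ab1 (0.16) and Hspa9 (0.12) lie low.

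The libraries with much Hsph1 were also those with much of several other heat shock proteins, though not of all. Hsph1 was taken as the reference after its spread had been seen, and 53 relations over the 8 mice were computed, 50 of them with the other tested members. Pearson's r was above 0 for 37 of these 50 (74.0%), beside 49.4% of the other 11987 tested genes, and above 0.9 for 2 of them (4.0%), beside 0.534% of those genes. These shares are given as a description, since all genes share the same 8 libraries. The permutations shuffled all 8 libraries freely, so their p values make no allowance for treatment or replicate number. Hsp90aa1 followed Hsph1 most closely, with r = 0.921 (exact permutation p = 0.000322, adjusted p = 0.0171) and Spearman's rho = 0.976 (exact permutation p = 0.000397, adjusted p = 0.0210). For Dnaja1, r was 0.906 (exact permutation p = 0.00251, adjusted p = 0.0456) and rho 0.905 (exact permutation p = 0.00456, adjusted p = 0.121). Without water replicates 3 and 4, the 2 libraries farthest from the median of Hsph1, r was 0.790 for Hsp90aa1 and 0.781 for Dnaja1.

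Hspa8 and Hspa1b came next and did not pass the adjustment. The values were r = 0.883 (exact permutation p = 0.00575, adjusted p = 0.0610) and rho = 0.857 (exact permutation p = 0.0107, adjusted p = 0.189) for Hspa8, and r = 0.875 (exact permutation p = 0.00570, adjusted p = 0.0610) and rho = 0.714 (exact permutation p = 0.0576, adjusted p = 0.382) for Hspa1b. Without the same 2 libraries r was 0.834 and 0.739. For Hspa13, r was 0.848 (exact permutation p = 0.0175, adjusted p = 0.154) and rho 0.667 (exact permutation p = 0.0831, adjusted p = 0.489), and r fell to 0.0582 without water replicates 3 and 4, so that this relation rested on them. Other named members followed Hsph1 less closely or not at all. Their r was 0.576 for Dnajb1, 0.435 for Hspe1, 0.430 for Hspa1a, 0.155 for Hspd1 and -0.326 for Hsp90ab1. None of these passed the adjustment. Within the groups r with Hsph1 was 0.963 on water and 0.756 on zinc for Hsp90aa1, and 0.971 and 0.770 for Dnaja1, with 4 mice each, too few for a test. For Dnajb1 this r was 0.988 on water and -0.279 on zinc. All values share the libraries and their scaling. The TMM factor itself had r = -0.415 with Hsph1 (exact permutation p = 0.301).

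**Figure D4:**
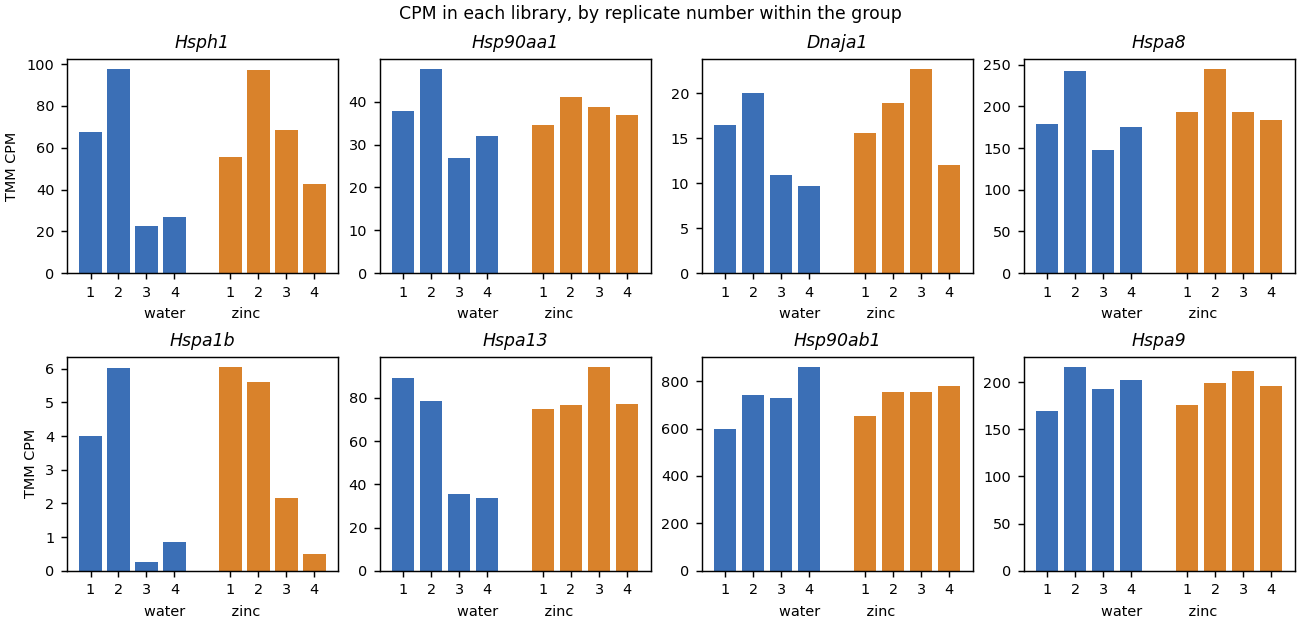
TMM CPM of 8 chaperone genes in each library, by replicate number within the group (blue bars, water; orange bars, zinc), with axes from 0. Hsph1, Hsp90aa1, Dnaja1, Hspa8, Hspa1b and Hspa13 are lower in water replicates 3 and 4 than in water replicates 1 and 2, whereas Hsp90ab1 and Hspa9 do not share this pattern.

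Chaperones of the endoplasmic reticulum, which fold secreted proteins and are not among the members, had a similar profile. Their list holds genes left out by the rule and others whose symbols it does not match, such as Hsp90b1 and Hyou1. Their 9 genes summed to 2271, 2389, 1316 and 1238 CPM on water and to 1915, 2146, 2256 and 2065 CPM on zinc. Water replicates 3 and 4 were thus the lowest, as for Hspa13, Dnaja1 and Hsph1. Their mean log2 level had r = 0.917 with Hsph1 (exact permutation p = 0.00258, adjusted p = 0.0456) and rho = 0.833 (exact permutation p = 0.0154, adjusted p = 0.204), and r was 0.676 without those 2 libraries. None of the 9 was called, 8 had a log2 fold change above 0, and the smallest p belonged to Dnajb11, at 0.21 with SE 0.14.

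Immediate early genes, which rise when tissue is dissociated, were set beside Hsph1 as well. Their list holds 26 genes. The mean log2 level of the 23 tested genes had r = -0.374 with Hsph1 (exact permutation p = 0.366, adjusted p = 0.719), and Spearman's rho was near 0. This r rested on water replicates 3 and 4, since it was 0.75 without them, and it was -0.635 within water and 0.760 within zinc. Their summed level was 494 to 685 CPM on water and 467 to 606 CPM on zinc. None of the 23 tested was called by edgeR, 4 had an unadjusted p below 0.05 and the median log2 fold change was -0.20. Nfkbia, the inhibitor of NF-kB, was lowest in p with a log2 fold change of -0.58, SE 0.15 and an edgeR adjusted p of 0.385.

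The partners of the chaperones were likewise not called. Of 24 Hsp90 and Hsp70 co-chaperones, 16 had a log2 fold change above 0 with a median of 0.055, and 2 had an unadjusted edgeR p below 0.05. These were Fkbp5, an immunophilin of steroid receptor complexes, at 0.38 with SE 0.16, and Stip1, which links Hsp70 to Hsp90, at 0.35 with SE 0.16. The 14 genes of the cytosolic chaperonin TRiC and prefoldin had a median of 0.07 with 12 above 0, and Cct6a had the smallest p at 0.16 with SE 0.11. Of the 13 tested heat shock factor regulators and targets, 6 lay above 0 and 7 below, with a median of -0.02, and Fkbp4, an immunophilin, had the smallest p at a log2 fold change of 0.19. These lists overlap, since Fkbp4, Bag3 and Chordc1 are also among the co-chaperones and Tcp1 is also a TRiC gene. Among 11 mitochondrial chaperones and proteases the median was 0.04, and Grpel2, a nucleotide exchange factor of mitochondrial Hsp70, had the smallest p at -0.35 with SE 0.13.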

How the data were processed

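RNA of FACS-sorted Paneth cells from 4 mice on water and 4 on zinc was prepared with the TruSeq stranded mRNA kit. The authors deposited 1 table of unnormalized whole-number counts per Ensembl gene ID, with 20760764 to 24117111 counts per library. The submitters' processing notes name FastQC 0.12.0, STAR 2.7.0a, DESeq2 and mm39. For this table, the counting program, the annotation and the handling of strand and of reads with several matches were not stated in the labels or methods, and among the members Hspa8, Hspb1, Hspa1b, Hspa1a and Hsp90aa1 share the largest part of their sequence with other genes (49.3 to 68.0% of 75-base windows).

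Symbols and positions came from GENCODE M39 on GRCm39, which matched 54749 of 55414 IDs and at least 99.994% of counts in each library. Counts were fitted with edgeR 4.0.16 in R 4.3.3 (filterByExpr with a minimum count of 10, TMM, robust quasi-likelihood F test, treatment as the only term, Benjamini-Hochberg adjustment over 11988 genes, threshold 0.05). The SE was obtained by dividing the size of the log2 fold change by the root of its F statistic. Log2 CPM for the spread and for correlations used a prior count of 2. Correlations were tested by exact two-sided permutation with SciPy 1.17.1. The edgeR fit with its main settings was tested on simulated data, and the alternatives were not.

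Named members were Hsf1, the main Hsp90, Hsp70, Hsp110, chaperonin, small and DnaJ genes, those with an unadjusted p below 0.05, the 5 highest per kb, the 5 with the largest SD and 5 without counts. Of each other list, the gene with the smallest p was named. Hspa13, Hspa4, Hspb6, Dnajc7, Dnajc17, Hspa5 and the other genes outside this rule were named after their values were seen. Members and lists were chosen with earlier results of these data known. Alternatives were RLE factors, DESeq2 1.42.0, limma-voom (limma 3.58.1), other count filters, the replicate number as a block, Defa genes left out, each library left out, other denominators and, added after seeing the data, other lengths.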

Additional observations from a re-analysis of the deposited data

Results flagged for a closer look

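The CPM of named members was examined in 38 groups of 4 mice for a single library far from the others, using Dixon's 95% critical value, by which chance singles out about 1 group in 20. Hspa1a in water replicate 2 was at 2.11 CPM, while the other water libraries were at 0.212 to 0.438 CPM. Hspa8 in zinc replicate 2 was at 244 CPM, while the other zinc libraries were at 184 to 193 CPM. These were the 2 groups singled out.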

How the results depend on the processing

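No member was called under any of the 15 alternatives to the edgeR fit, and the count at an unadjusted p below 0.05 ran from 0 to 5, with 5 without water replicate 2. Over all genes, 10 were called in the main analysis, 36 with DESeq2 (8 higher, 28 lower), 66 with no low-count filter (11 higher, 55 lower) and 32 with the replicate number as a block (6 higher, 26 lower). Leaving out 1 library gave 1 to 15 calls, with 1 without water replicate 2, 4 without water replicate 3 and 3 without zinc replicate 2. In the co-chaperone and other lists 1 gene was called with no filter (Nfkbia) and 1 with the replicate block (Gadd45g), and the causes were not tested. The replicate numbers were not taken as pairs, since the deviations of same-numbered libraries had correlations of 0.233, 0.000, 0.127 and 0.263, not all above 0.1, beside -0.022, 0.002, 0.040 and -0.010 at most with another number. As a hint from the data only, water replicates 1 to 4 correlated best with zinc replicates 1, 3, 3 and 4. Of 254 alternative log2 fold changes of the 17 named tested members, 215 had the sign of the main value and 39 the opposite one, and the lowest adjusted p was 0.493. With RLE factors, DESeq2, a mean count of at least 50 and Defa genes left out, Hsp90ab1 and Hspa9 turned to -0.001, -0.001, -0.007 and -0.002 each. With 1 library left out, the log2 fold change ran from -0.077 to 0.028 for Dnaja2, -0.155 to 0.053 for Dnajb1, -1.038 to 0.071 for Dnajc27, -0.01 to 0.088 for Dnajc5, -0.054 to 0.226 for Hsp90aa1, -0.084 to 0.086 for Hsp90ab1, -1.562 to 0.836 for Hspa1a, -0.03 to 1.12 for Hspa1b, -0.061 to 0.051 for Hspa9, -0.09 to 0.566 for Hspb8 and -0.14 to 0.056 for Hspe1. Hsf1 (0.28 to 0.51), Hspa14 (0.25 to 0.45), Hspd1 (0.15 to 0.28), Dnaja1 (0.12 to 0.49), Hspa8 (0.03 to 0.28) and Hsph1 (0.04 to 0.77) kept their sign. The difference in the share of counts ran from -0.0135 to 0.0323 percentage points. The SE was 0.91 to 1.07 for Hspa1a, Hspa1b and Dnajc27. Hspa1a and Dnajc27 had few counts, while Hspa1b differed widely between mice.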
